A study of Mus musculus with 2 samples.

Results

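The transferases described here add the outer sugars of mucosal glycans: fucosyltransferases, galactosyltransferases and enzymes that extend, branch or cap the same chains. The 10 genes Fut1, Fut2, Fut4, Fut8, B3galt5, B4galnt2, B3gnt3, St3gal4, Gcnt3 and C1galt1 were taken by the gene name printed for each probe, and 14 of the 41174 gene probes of the array carry one of these names. The members were chosen by name with their log ratios on these same 2 arrays already known, so the ratios are given as a description and without a test. RNA of the intestine was compared between gut-specific GDE5 (Gpcpd1) deficient mice, labelled GDE5 KO, and wild-type mice (WT). All were males, aged 20 weeks, and ate a normal diet. The design text counts 5 mice without saying whether that is per genotype. The promoter that limits the deletion to the gut, the deleted part of the gene, the segment of intestine taken and any pooling of animals are not given in the sources used here. Both genotypes were hybridised together on each of 2 dual-colour Agilent arrays that share 1 slide. In replicate 1 the dye of the RNA labelled knockout was Cy3, and in replicate 2 it was Cy5. Ratios are log2 values of knockout-labelled over wild-type-labelled RNA, averaged as mean ± SD across both arrays (n = 2). Whether separate RNA extracts went on each array is not stated, so this SD may hold technical spread alone, and having 2 arrays limits the precision throughout.

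Mucins and epithelial surface proteins carry glycans that are built one sugar at a time in the Golgi. A core is made first, then lengthened and branched, and finally capped with fucose, sialic acid or N-acetylgalactosamine. In the mouse gut the caps form a layer of fucosylated and sialylated sugars that bacteria bind and digest, and epithelial fucosylation through Fut2 is known to be induced by interleukin 22 and lymphotoxin from innate lymphoid cells. B3galt5 makes type 1 chains, one of the acceptors on which Fut1 and Fut2 place fucose to form the H antigen.

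The results turn on 3 probes, each with 60 bases, whose first 30 bases are shown 5′ to 3′ as the deposited files print them, so that the parts of the transcripts measured can be traced. The B3galt5 probe lies at chr16:96541339-96541398 on the plus strand of mm9, from base 4787 of its transcript, and both Fut2 probes lie on the minus strand of chromosome 7, at chr7:52904672-52904731 (from base 2184) and chr7:52905946-52906005 (from base 910).
B3galt5 A_51_P301435: cactgaatggagtttggaattgtcatttgc
Fut2 A_52_P623226: gcctactctgtccatctgagaagaactgag
Fut2 A_51_P393099: tattcatctccagtcttcgtggttacaagc

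Before the members, 3 facts of the arrays bear on all of them. The deleted gene Gpcpd1 did not read lower in knockout-labelled RNA: 3 of its 4 probes were higher there on both arrays, with mean ratios of 0.47, 0.62 and 0.68, and the other had -0.43 and 0.17. The target gene thus ran against the label on most probes, and every direction rests on the dye labels. Between the arrays, turned ratios had r = -0.38 over 18988 tested genes (Spearman -0.42, a description across genes, which are not independent replicates). In the log ratios that the scanner software deposited, r was -0.02 (Spearman -0.17). Over 245 probes printed 10 times, the median SD of the log2 ratio between spots was 0.183 in replicate 1 and 0.121 in replicate 2. All 9 markers of intestinal epithelium on the lists used here were well above background.

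B3galt5, the galactosyltransferase of type 1 chains, had the largest difference among the members. Its normalised intensity was 713 and 758 in the RNA labelled knockout (replicates 1 and 2), against 1483 and 1296 in the RNA labelled wild type. Both values of the knockout lay below both of the wild type. The share of all tested genes that separate in this way is not given here. Its log2 ratios were -1.06 (replicate 1) and -0.77 (replicate 2), a mean of -0.92 ± 0.20, or 1.89-fold lower. Both ratios were larger than the SD between replicate spots. The deposited log ratios gave -1.01 and -0.96 on the log2 scale, with errors of 0.22 for each from the software's error model. Among all tested genes, 0.0579% were at least 1.5-fold lower on both arrays and 0.158% that much higher, and B3galt5 is the 1 member in the lower set. In the deposited log ratios the shares were 0.295% lower and 0.542% higher, with B3galt5 and Fut2 as the 2 members in the lower set. It had been chosen with this value known, so nothing is read from these shares. It was at least 1.5-fold lower on both arrays under each of the 8 ways of processing that were compared. All 8 start from the same 2 arrays, and 1 of them, the deposited value table, holds the software's ratios rounded. In bulk RNA, fewer cells of a type and less RNA per cell cannot be told apart.

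**Figure D1:**
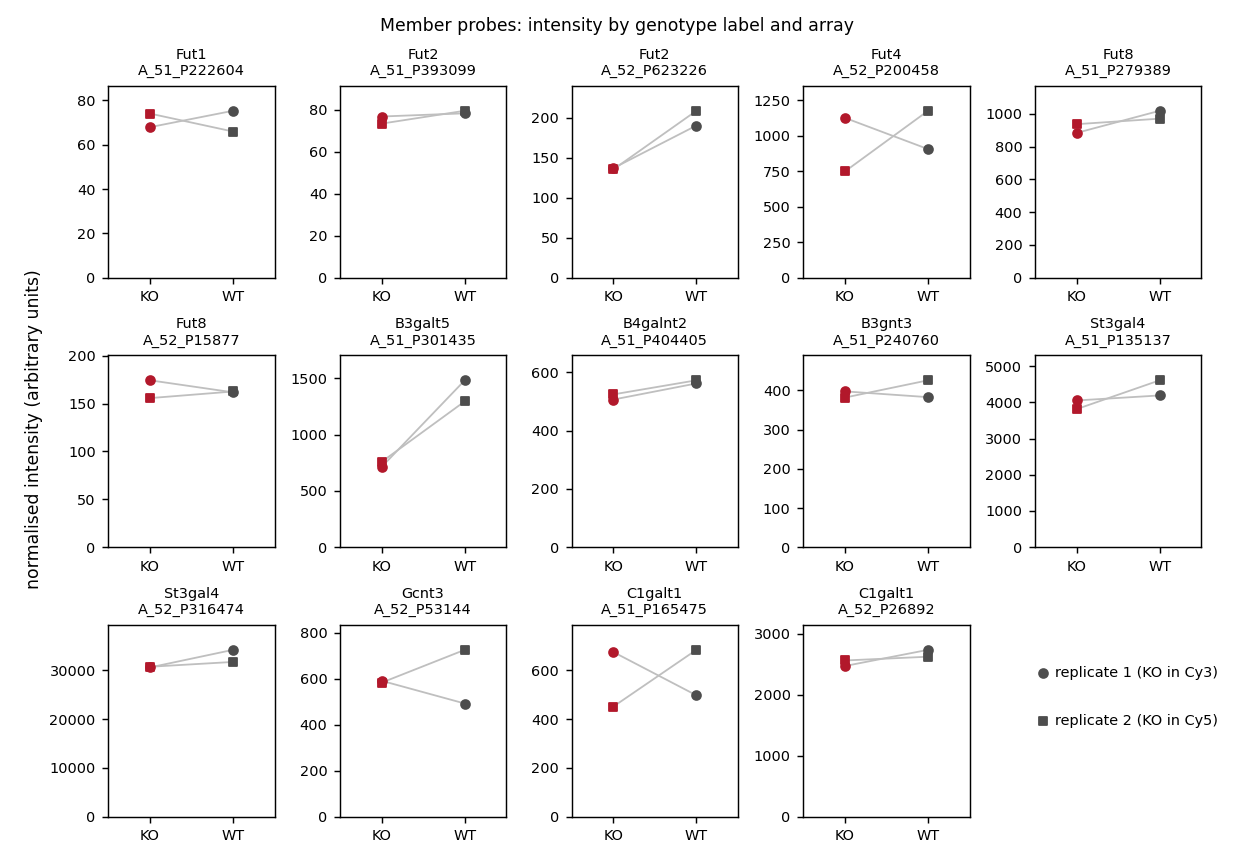
Normalised intensity (arbitrary units, axes from 0) of the 14 member probes in the RNA labelled knockout (KO, red, left) and wild type (WT, grey, right); circles are replicate 1, squares replicate 2, and a line joins the genotypes of one array. The lines of B3galt5 and of Fut2 probe A_52_P623226 run the same way on both arrays, while those of Fut4, Gcnt3 and C1galt1 probe A_51_P165475 cross.

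Fut2, the fucosyltransferase of mucosal secretions and gut epithelium, came next. Its brighter probe A_52_P623226 measured 137 and 135 in the RNA labelled knockout, against 190 and 209 in the RNA labelled wild type. The groups did not overlap. Neither did those of the other Fut2 probe, B4galnt2, both St3gal4 probes, or the brighter probes of Fut8 and C1galt1. With 2 values per group, values separate at small ratios too, as at a mean of -0.09 for that C1galt1 probe. The share of all tested genes that separate is not given here, so nothing is read from the separation. For Fut2 probe A_52_P623226 the log2 ratio was -0.48 and -0.63, a mean of -0.55 ± 0.11, or 1.46-fold lower. In the deposited log ratios the same probe stood at -0.67 and -1.16, a mean of -0.92 ± 0.34. It passed 1.5-fold on both arrays under 3 of the 8 ways of processing. These were the software's ratios, the deposited value table, which holds those ratios rounded, and normexp without an offset.

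The second Fut2 probe, A_51_P393099, was dim. An offset of 50 was added to every signal before loess. The probe then measured 76.7 and 73.3 in the RNA labelled knockout and 78.2 and 79.4 in the RNA labelled wild type. Its log2 ratio was -0.03 and -0.12. The deposited log ratios, which hold no such offset, gave -0.61 and -0.37, with errors of 0.26 and 0.28. Under the 9 alternatives its mean lay between -0.49 and -0.02, below 0 in each. With a smooth surface over row and column taken off, its arrays had opposite signs, -0.25 and 0.13. Its mean thus shared the sign of the brighter probe, at a size that depends on how dim signals were treated.

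Fut1, the other member that forms the H antigen, could not be measured. Its single probe (A_51_P222604, chr7:52874862-52874921, mm9) was well above background in the Cy3 channel of each array and in neither Cy5 channel, so in the RNA labelled knockout of replicate 1 and in the RNA labelled wild type of replicate 2. It read 67.9 and 74.0 in the RNA labelled knockout against 75.3 and 65.9 in the RNA labelled wild type, with ratios of -0.15 and 0.17. It was left out of the tested probes, which left 13 probes of 9 genes.

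**Figure D2:**
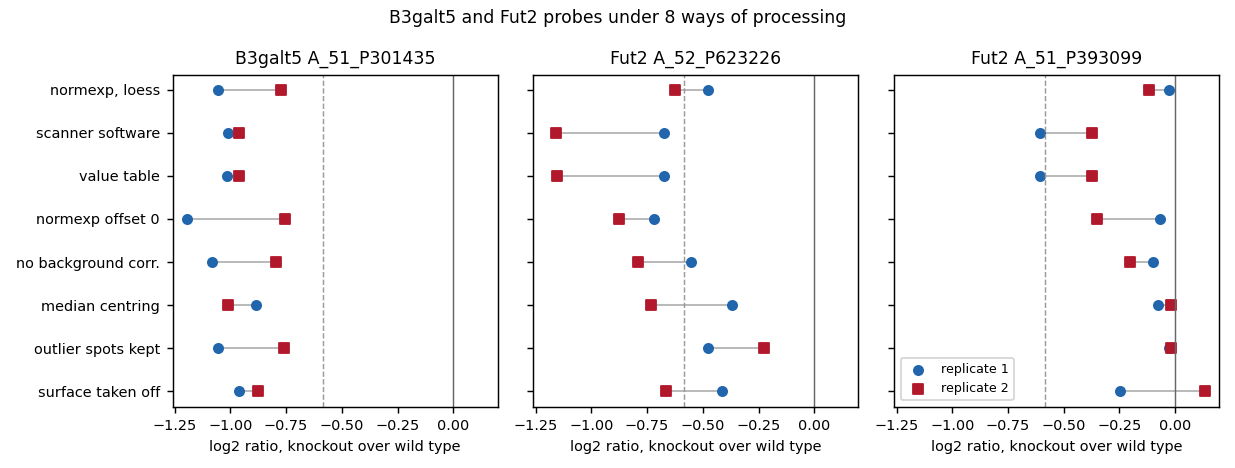
Log2 ratio (horizontal axis, RNA labelled knockout over wild type) of the B3galt5 probe and both Fut2 probes on each array under 8 ways of processing, listed down the page; the dashed line marks 1.5-fold lower and a grey line joins the arrays. Both arrays lie left of the dashed line for B3galt5 in 8 of the 8, for Fut2 A_52_P623226 in 3, and for Fut2 A_51_P393099 in none.

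The other fucosyltransferases of the group showed smaller ratios or ratios of opposite sign. Fut8, which puts the core fucose on N-glycans, measured 883 and 936 in the RNA labelled knockout and 1018 and 970 in the RNA labelled wild type with probe A_51_P279389. The genotypes did not overlap, yet the mean ratio was -0.13 ± 0.11, and the second array's -0.05 lay within the SD between spots. Its dimmer probe A_52_P15877 went opposite ways, with 0.11 and -0.06, but stood above 0 on both arrays in the deposited log ratios, at 0.10 and 0.05. Fut4, an enzyme of the Lewis x antigen, measured 1126 and 748 in the RNA labelled knockout against 906 and 1176 in the RNA labelled wild type. These values overlap, and the ratios were 0.31 and -0.65. The deposited log ratios of Fut4 were -0.07 and -0.37, below 0 on both arrays.

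Among the capping and chain enzymes, B4galnt2 had the closest agreement between arrays. This enzyme adds the N-acetylgalactosamine of the Sd(a) antigen and is known from the mouse ileum and colon. It measured 507 and 525 in the RNA labelled knockout and 562 and 573 in the RNA labelled wild type. The ratio was -0.15 and -0.13, a mean of -0.14 ± 0.02, and the deposited log ratios gave -0.25 and -0.17. Both genotypes were apart on both arrays, but the first ratio did not exceed the SD between spots. St3gal4, which caps galactose with sialic acid, measured 30590 and 30730 in the RNA labelled knockout and 34200 and 31720 in the RNA labelled wild type with probe A_52_P316474. The 2 St3gal4 probes gave means of -0.10 ± 0.08 and -0.16 ± 0.16, with the same sign on both arrays. When spots marked as outliers were kept, the first had a mean of 0.01.

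The core enzymes showed no shared direction. C1galt1 makes the core 1 structure by adding galactose to the first sugar of an O-glycan. Its brighter probe A_52_P26892 measured 2474 and 2565 in the RNA labelled knockout and 2740 and 2627 in the RNA labelled wild type, a mean ratio of -0.09 ± 0.08. In the deposited log ratios this probe had opposite signs, -0.22 and 0.12, as it did without an offset (-0.24 and 0.03) and with the surface taken off (-0.15 and 0.02). The other probe, A_51_P165475, measured 675 and 451 in the RNA labelled knockout against 497 and 683 in the RNA labelled wild type, and its ratios of 0.44 and -0.60 had opposite signs. Gcnt3, the mucin-type branching enzyme, measured 591 and 583 in the RNA labelled knockout and 492 and 726 in the RNA labelled wild type. Its ratios were 0.26 and -0.32, while the deposited log ratios were -0.01 and -0.18, both below 0. B3gnt3, which lengthens core 1 with N-acetylglucosamine, measured 397 and 382 in the RNA labelled knockout and 383 and 426 in the RNA labelled wild type, with ratios of 0.05 and -0.16.

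**Figure D3:**
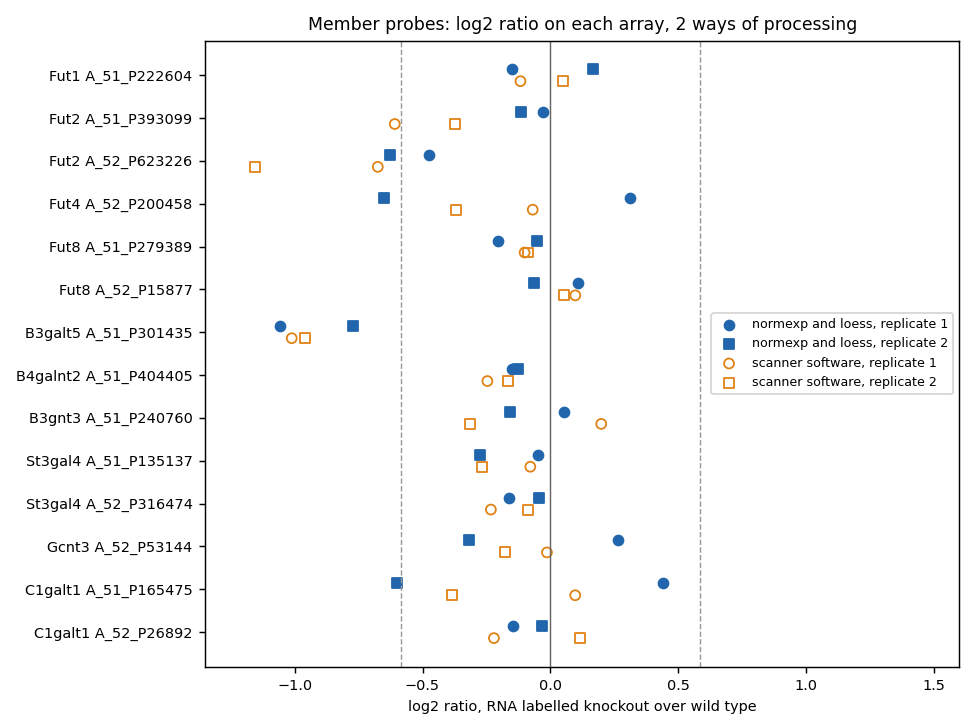
Log2 ratio of the RNA labelled knockout over wild type (horizontal axis) for the 14 member probes on each array, from normexp and loess (blue, filled) and from the scanner software (orange, open); circles are replicate 1, squares replicate 2, and dashed lines mark 1.5-fold. No blue or orange marker lies beyond 1.5-fold on the higher side.

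By sign alone, 6 of the 9 tested members were lower on both arrays, none was higher on both and 3 went opposite ways. Over all tested genes, 18.1% were lower on both, 16.9% higher on both and 64.9% opposite. In the deposited log ratios 7 members were lower on both and none higher, where 21.1% of all genes were lower and 20.2% higher. The median of the members was -0.13, with -0.15 in replicate 1 and -0.16 in replicate 2, beside -0.01 over all tested genes. Only B3galt5 and Fut2 were lower on both arrays by more than the SD between replicate spots, as were 1.76% of all tested genes, while 4.63% were higher by that much and no member was. Nothing is read from these shares, because the members were chosen with the contrast known. limma, fitted to all 18988 genes, called 0% at an adjusted p under 0.05. Unadjusted, 236 genes (1.24%) had a p under 0.05. Fitted to the deposited log ratios it called 0.2%, which is 38 genes, and none of these was a member.

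Position on the array was set beside the ratios of opposite sign. Of the 14 member probes 6 had opposite signs, as did 64.9% of all tested genes. Of these 6 probes, 5 were brighter in Cy3 on both arrays, whichever RNA carried it. The share of all genes brighter in Cy3 on both arrays is not given here. Among the 5, Fut4, Gcnt3 and C1galt1 probe A_51_P165475 were printed in rows 53, 96 and 68 of the array, and gene spots in rows 1 to 100 had a median log2 ratio of Cy5 over Cy3 of -0.18 in replicate 1 and -0.16 in replicate 2 after loess. In rows 201 to 300, which hold the B3galt5 spot at row 280, the median was 0.07 and 0.05. B3gnt3, at row 293, and Fut8 probe A_52_P15877, at row 474, were also brighter in Cy3 but lay outside the first rows, and Fut1, at row 370, was brighter in Cy5. With a smooth surface over row and column taken off, the ratios of Fut4 were 0.12 and -0.49 and those of B3gnt3 lay further apart, at 0.15 and -0.25, while B3galt5 stood at -0.96 and -0.88. The part of the array surface in the opposite signs was not tested. Across all tested genes, 0.216% differed by 1.5-fold or more between genotypes on both arrays, and 1.05% did so between dyes.

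**Figure D4:**
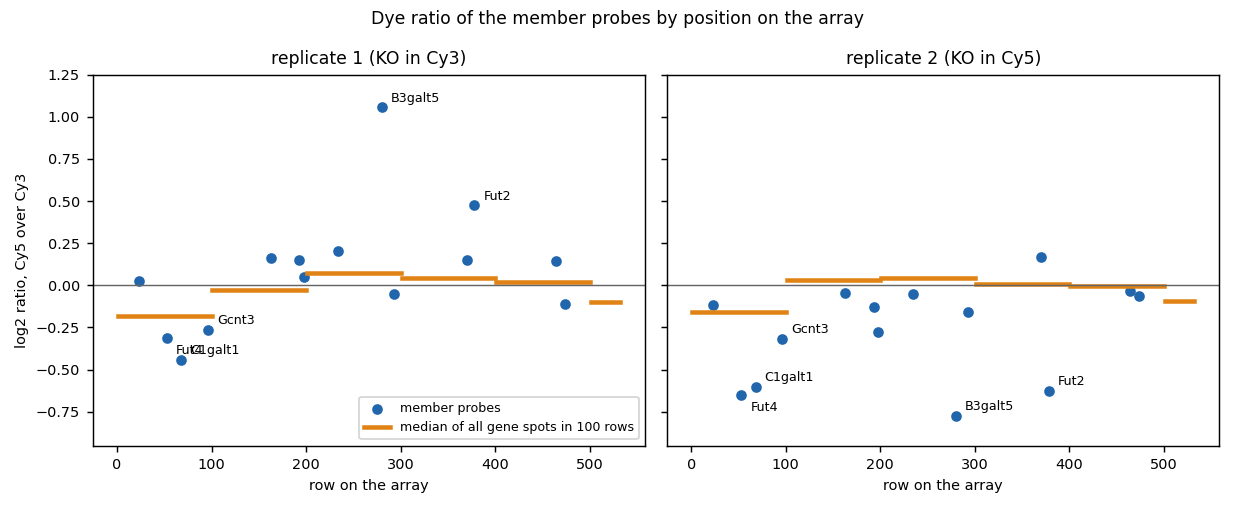
Log2 ratio of Cy5 over Cy3 (vertical axis) of the member probes against their row on each array, with the median of all gene spots in bands of 100 rows in orange. B3galt5 and Fut2 probe A_52_P623226 are above 0 in replicate 1 and below 0 in replicate 2. Fut4, Gcnt3 and C1galt1 probe A_51_P165475, near the first rows, are below 0 on both.

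The remaining enzymes of glycan assembly were taken as lists. None of their genes was called by limma or was at least 1.5-fold apart on both arrays. Of 6 tested other fucosyltransferases, 2 were lower and 1 higher on both arrays (median -0.05). Sec1, among the 2 lower, passed the filter through the RNA labelled wild type alone. Pofut2, which fucosylates thrombospondin repeats, was at -0.48 ± 0.03 with its brighter probe and at 0.19 ± 0.21 with the other. Fut7, the leukocyte enzyme of sialyl Lewis x, was at 0.29 ± 0.18. Of 8 genes of fucose donor supply and fucosidases, 6 went opposite ways (median -0.07), among them Gmds, an enzyme of GDP-fucose synthesis, at 0.04 ± 0.11. Fuca1, the lysosomal fucosidase, was at -0.07 ± 0.04. Of 13 other galactosyltransferases, 5 were lower and none higher on both arrays (median -0.08). B4galt1, the main enzyme of type 2 chains, had 3 probes between -0.26 and -0.10, each lower on both arrays, and B3galt6 and B4galt4 were at -0.22 ± 0.02 and -0.13 ± 0.01. C1galt1c1, the chaperone that C1galt1 needs, was at -0.15 ± 0.16.

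The remaining lists had medians between -0.06 and 0.02. Of 9 genes of galactose donor supply and galactosidases, 2 were higher and 2 lower on both arrays (median 0.00), with Ugp2, which makes UDP-glucose, at 0.30 ± 0.34. Of 11 other N-acetylhexosamine chain enzymes, 8 went opposite ways (median -0.04). Among 15 enzymes that start O-glycans, 2 were higher on both arrays and 13 went opposite ways (median 0.01). Galnt14, among the 2 higher, passed the filter through the RNA labelled knockout alone. Of 19 genes of sialylation, 14 went opposite ways (median -0.03), and St3gal6, a sialyltransferase related to St3gal4, was higher with both probes (0.26 ± 0.02 and 0.31 ± 0.10). Of 12 N-glycan branching enzymes, 9 went opposite ways (median -0.06), while Man2a2, a Golgi mannosidase, was at 0.34 ± 0.13 and Mgat2, an N-acetylglucosaminyltransferase, at -0.35 ± 0.48. The 16 mucins and mucus proteins had a median of 0.02, with 3 lower and 1 higher on both arrays. Muc5b, among the 3 lower, passed the filter through the RNA labelled wild type alone. Muc13, a membrane mucin, was at -0.24 ± 0.09, and Clca1, a goblet cell protein of the mucus layer, at 0.22 ± 0.03.

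**Figure D5:**
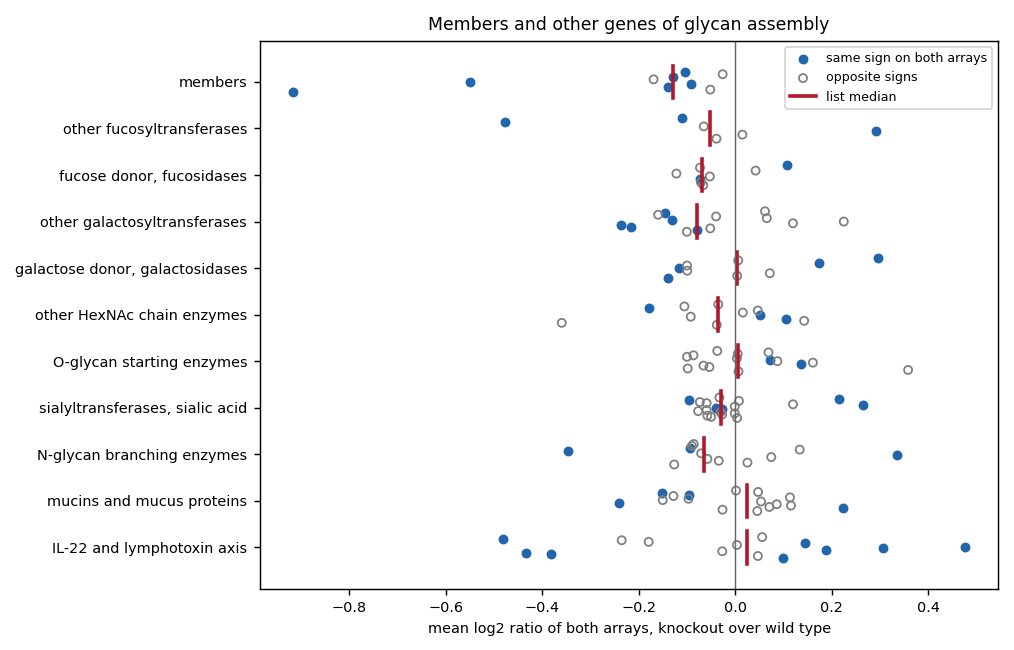
Mean log2 ratio of both arrays (horizontal axis, RNA labelled knockout over wild type) for each tested gene of the members and of 10 lists; filled points have the same sign on both arrays, open ones opposite signs, and red bars are list medians. B3galt5 at -0.92 and Fut2 at -0.55 stand left of every other point.

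Genes of the interleukin 22 and lymphotoxin axis, the known inducers of Fut2 in mouse epithelium, split by direction. Of 14 tested genes, 5 were higher and 3 lower on both arrays (median 0.03), and limma called none in the normexp and loess ratios. Il22, the cytokine itself, measured 73.2 and 84.7 in the RNA labelled knockout against 106.4 and 106.1 in the RNA labelled wild type with probe A_52_P177054, a ratio of -0.43 ± 0.15. These signals stand close to the offset. In the deposited log ratios Il22 was at -1.34 and -1.40, and its second probe at -1.16 and -2.12. limma fitted to the deposited log ratios called it lower (adjusted p = 0.00544), the 1 gene of the list called there. Socs3, a target gene of STAT3, was at -0.48 ± 0.01 with the brighter probe and at -0.02 ± 0.25 with the other. Reg3b, on the same list, was higher on both arrays, at 0.14 ± 0.17. Reg3g had opposite signs, at -0.18 ± 0.39. Il18, an epithelial cytokine, was at -0.38 ± 0.07. Ltb and Lta, the lymphotoxin chains, were higher at 0.48 ± 0.12 and 0.31 ± 0.04. Il23r, Il23a and Il10 were not well above background.

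Cell type and region markers were set beside these values. Of 9 intestinal epithelium genes 2 were higher and 2 lower on both arrays, and 5 went opposite ways (median -0.06). Fabp2 was at 0.70 ± 0.35 and Cdx2 at -0.17 ± 0.22. Goblet cell genes had a median of 0.05, with 1 of 11 higher and 2 lower on both arrays, and a summed intensity of 588820 to 638260 in the RNA labelled knockout against 573940 to 601370 in the RNA labelled wild type. Paneth cell genes had a median of -0.24, with 4 of 6 lower and none higher on both, and sums of 261210 to 274770 against 338740 to 340130 in wild type. Of 8 proximal small intestine genes 3 were higher and 3 lower on both (median -0.04), with Lct at 1.41 ± 0.61 and Fabp1 at 1.28 ± 0.01. limma fitted to the deposited log ratios called both higher (adjusted p = 0.000833 for Lct and 0.00833 for Fabp1). Slc40a1, among the 3 lower, was at -0.34 ± 0.30. Of 8 distal small intestine genes 4 were lower and none higher (median -0.12), with Fgf15 at -0.49 ± 0.23. Of 7 tested large intestine genes 4 were higher and 1 lower (median 0.10), and Hoxb13 and Hoxd13 were not well above background. B cell genes were higher on both arrays in 8 of 8 (median 0.38), and lymphoid and T cell genes in 1 of 6 (median 0.05). Of 8 skeletal muscle genes 6 were higher and 2 lower (median 0.78), 5 of them at least 1.5-fold higher on both arrays. In the deposited log ratios their median was 1.62 and limma called 5 higher. Their summed intensity was 3501 to 3720 in the RNA labelled knockout against 2174 to 2310 in the RNA labelled wild type. Myh1 and Pvalb, both among the 6 higher and the 5 called, were well above background on both arrays only in the RNA labelled knockout. They thus passed the filter only through the group where they were high, and Myh1 is also among the 5 past 1.5-fold. Exocrine pancreas genes had a median of -0.09, with 1 of 4 lower on both and Pnlip, Cpa1 and Cela2a not well above background. The part of cell composition or gut region in the ratios of B3galt5 and Fut2 was not tested.

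Promoter sequence could be matched for 8 of the 10 members, with 13 start sites. The window around the first B3galt5 start is shown because B3galt5 carries the main difference; it runs over 300 bases from before to just past the start, on the plus strand at chr16:96235551-96235850 (RefSeq, GRCm38.p6). Capitals mark the single match to TTCNNNGAA, the letters of a STAT site, which read the same on both strands.
B3galt5: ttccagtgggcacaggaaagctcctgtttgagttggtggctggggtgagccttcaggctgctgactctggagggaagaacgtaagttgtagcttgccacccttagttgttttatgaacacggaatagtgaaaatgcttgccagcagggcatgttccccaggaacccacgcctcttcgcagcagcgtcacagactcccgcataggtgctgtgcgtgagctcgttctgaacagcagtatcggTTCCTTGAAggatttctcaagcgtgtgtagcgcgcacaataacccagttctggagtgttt
Of all 32851 promoter windows in the table, 8.3% hold these letters, and of the 13 member windows 1 does. The other 2 letter patterns searched on both strands did not overlap it. GTTAAT, from sites of the factor HNF1, was in none of the member windows and in 7.1% of all windows, and TTTATNG, from sites of CDX factors, was in 1 member window, of Fut8, and in 10.9% of all windows. Which of the 3 B3galt5 starts gave the measured RNA was not tested, and a match is a description of letters only.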

How the data were processed

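Per the file headers, the deposited intensity values were read by Agilent's Feature Extraction 11.5.1.1 (9.5 per the submitters' processing notes), as mean spot brightness and median local background in each channel. The deposited log10 ratio column holds Cy5 over Cy3 after the software's background subtraction, detrending and dye normalization, and a value table deposited beside it gives those log10 values rounded. Here mean signals were corrected with normexp and an offset of 50, without the 133 and 222 spots marked as outliers, and normalized by loess within arrays (R 4.3.3, limma 3.58.1). The ratio of the array with the knockout in Cy3 was turned, and spots of a probe were averaged. Normalised intensities per channel are after loess and Aquantile, which keeps each array's ratios. A probe was tested where either genotype was well above background on both arrays, and the brightest probe stood for a gene. Symbols were updated by transcript accession with a RefSeq table (GRCm38.p6) for 31441 of 43379 spots. limma's moderated test had 1 residual degree of freedom. Named genes are all members with all probes, Gpcpd1, and some genes of the lists. Those with a ratio were picked from the 4 per list with the largest smaller ratio of the 2 arrays in one direction. Not all of these 4 are named, and a named gene can rank below an unnamed one. Gmds, C1galt1c1, Lta, Pvalb, Reg3b, Reg3g and probes other than the brightest of list genes were named after their values were seen. The members and lists were chosen with earlier results of these data known, and the promoter letters after the ratios had been seen.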

Additional observations from a re-analysis of the deposited data

How the results depend on the processing

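Across the alternatives, the B3galt5 ratio ranged from -1.06 to -0.77 and the ratio of Fut2 probe A_52_P623226 from -0.92 to -0.35, all below 0. The B3galt5 ends were single arrays, and the Fut2 ends were the software's ratios and the outlier spots kept. With the software's processed ratios, the deposited value table and normexp without an offset, limma called 38, 36 and 22 genes, against 0 in the reported ratios. In the same order 159, 157 and 89 genes differed between genotypes by 1.5-fold or more on both arrays, against 41, as did 2 members each time, against 1, with member medians of -0.16, -0.16 and -0.15. With outlier spots kept, 24 genes did so and the member median was -0.17. With a surface taken off, limma called 8 genes and the median was -0.12. The median was -0.16 with median centring and -0.12 without the filter on dim probes. On a single array (without replicate 1 or without replicate 2), 756 to 1049 genes and 1 to 3 members differed by that much, and the member median was -0.16 to -0.15. No limma fit was possible on a single array. Each ratio already pairs the genotypes within an array, so no further replicate block could be fitted. Both arrays lie on 1 slide, so no slide block could be fitted. Dim signals limit Fut1, the second Fut2 probe and Il22.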
